A study of Mus musculus with 6 samples.

Results

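Cholesterol synthesis and its control were followed through 30 genes, taken by symbol from a list of pathway genes that was drawn up with earlier results of these data known. All 30 were among the 15845 genes of the count table, and all 30 passed the low-count filter that left 13149 genes for testing. They comprised 7 early mevalonate enzymes, 11 late sterol enzymes, 7 regulators and 5 genes of sterol efflux, uptake and storage. RNA came from LSK cells of mouse bone marrow, which lack mature lineage markers and carry Sca1 and c-Kit, a gate that holds blood stem cells and early progenitors. All mice were C57BL/6 and carried Mx1Cre together with Jak2VF/VF, so control and treated animals shared both alleles. Mx1Cre is driven by an interferon-responsive promoter and acts in many cells besides those of the blood. The vehicle group received PBS. The treated group was dosed with TP-3654, a Pim1 inhibitor by the title of the series, over 6 weeks (150 mg/kg/day). There were 3 libraries per group, called biological replicates in the design text. The p-values set the difference between groups against the variation between these libraries, which is estimated with help from all genes.

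Cells make cholesterol from acetyl-CoA, first along the mevalonate pathway, which also feeds ubiquinone, dolichol and protein prenylation, and then through squalene and a series of sterol intermediates. When membrane sterol is low, the Scap protein escorts SREBP2, the product of Srebf2, from the endoplasmic reticulum to the Golgi, where it is cleaved into a transcription factor that activates most genes of the pathway. Insig proteins hold Scap back when sterol is plentiful, and the liver X receptors, activated by oxysterols, switch on genes that export cholesterol.

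No member passed edgeR's quasi-likelihood test after Benjamini-Hochberg adjustment over all genes, and neither did any other gene (0% of 13149, smallest adjusted p = 0.0701). At an unadjusted p under 0.05, 5 members stood higher with TP-3654 and 1 stood lower, which is 16.7% and 3.33% of the 30. The same rule took 10.2% of all tested genes as higher and 6.84% as lower. The 5 were Sqle, Lss and Cyp51, which act in sequence from squalene to the demethylated sterol nucleus, the regulator Srebf2 and the sterol carrier Stard4, and the 1 lower was the sterol isomerase Ebp. All 3 TP-3654 libraries lay above all 3 vehicle libraries at 4 members, 13.3% of them, against 14.3% of all tested genes. They lay below at 2 members, 6.67%, against 11.6% of all tested genes. The median log2 fold change (TP-3654 minus vehicle) of the 30 was 0.03, with a range of -0.37 to 0.55, beside 0.01 for all tested genes. Since 1 member is 3.33% of the 30, each of these shares lay within a few members of the share over all tested genes. No difference from that background is read from them. DESeq2 placed 3% of its 13348 genes as higher and 1.92% as lower at an adjusted p under 0.05, and Srebf2 was the 1 member among them. The authors' deposited table placed 2.85% of 13130 genes as higher and 2.48% as lower, with Srebf2 and Stard4 as the 2 members.

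Library totals ran from 20582057 to 25315596 counts. On these totals alone, 3 counts, the least taken as detectable, equalled 0.119 to 0.146 CPM (each library's counts brought to the same total). All other CPM values also carry TMM factors. Kit, the c-Kit gene of the gate, stood at 365 to 377 CPM in vehicle and 436 to 581 CPM with TP-3654, and Ly6a, the Sca1 gene, at 40.0 to 69.2 and 60.5 to 68.3 CPM. Of 8 stem cell markers 6 were higher at an unadjusted p under 0.05, with a summed level of 242 to 302 CPM in vehicle and 474 to 522 CPM with TP-3654. Of 9 granulocyte-monocyte progenitor markers 6 were lower, with sums of 10267 to 13200 CPM and 2274 to 7498 CPM, and none of the markers in these lists was at 0 in all libraries. Of 18 cycling-cell markers 5 were lower, with sums of 6046 to 6846 CPM and 5873 to 6714 CPM. Vehicle replicate 1 carried 704 CPM of mature neutrophil and monocyte markers and 57.2 CPM of macrophage markers, against 336 and 393 CPM, and 11.3 and 8.71 CPM, in the other vehicle libraries. In the TP-3654 libraries these sums were 332 to 465 CPM and 25.6 to 34.2 CPM. In sorted bulk RNA, a change in the mix of cells and a change in RNA per cell cannot be told apart, and the part of these markers in the sterol gene values was not tested.

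Srebf2 (chr15:82147269-82205379, GRCm38.p6) encodes SREBP2, the main transcription factor of cholesterol synthesis, and had the smallest p of the members. It was measured at 238, 213 and 214 CPM in the vehicle libraries and at 288, 311 and 306 CPM in the TP-3654 libraries. Every treated library lay above every vehicle library, and the groups were separated by more than the width of either. The means were 222 ± 14.0 CPM and 302 ± 12.3 CPM (SD, n = 3), a ratio of 1.36. In edgeR its log2 fold change was 0.44 with a standard error (SE) of 0.11, with adjusted p = 0.106. DESeq2 gave adjusted p = 0.0122, and the authors' deposited table a log2 fold change of 0.45 with adjusted p = 0.00765. Leaving out each library in turn gave log2 fold changes of 0.40 to 0.50.

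Srebf1, the related gene whose SREBP1 products drive mainly fatty acid synthesis, was at 151, 158 and 171 CPM in vehicle and 149, 152 and 132 CPM with TP-3654. Its groups overlapped, with a log2 fold change of -0.15 (SE 0.11, edgeR adjusted p = 0.481). The ratio of Srebf2 to Srebf1 counts was 1.58, 1.35 and 1.25 in vehicle and 1.93, 2.05 and 2.32 with TP-3654. The 2 groups of ratios did not overlap, and within a library such a ratio does not depend on scaling. Ratios of Insig1 to Insig2 and of Abca1 to Abcg1 were also taken, and their groups overlapped. These pairs were not set in advance.

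Insig1, which retains Scap in the endoplasmic reticulum and is itself a target of SREBP2, was at 41.6, 18.8 and 22.9 CPM in vehicle and 36.6, 38.4 and 41.7 CPM with TP-3654. Vehicle replicate 1 sat among the treated libraries, and the other vehicle libraries lay well below them. The log2 fold change was 0.49 (SE 0.28, edgeR adjusted p = 0.398), and with each library left out it ran from 0.26 without vehicle replicate 2 (unadjusted p = 0.326) to 0.90 without vehicle replicate 1 (unadjusted p = 0.000572, adjusted p = 0.178, all in edgeR). Insig2, its paralogue with the same retention role, was at 18.5, 20.8 and 16.2 CPM and at 16.7, 17.2 and 13.9 CPM, with overlapping groups and a log2 fold change of -0.22. Scap itself stood at 142 ± 16.5 CPM in vehicle and 144 ± 3.66 CPM with TP-3654.

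The liver X receptor genes had overlapping groups. Nr1h2, the broadly expressed receptor LXR beta, stood at 114 ± 13.2 CPM and 107 ± 7.68 CPM. Nr1h3, the LXR alpha gene of macrophages and liver, was the lowest member, at 2.99, 1.40 and 1.01 CPM in vehicle and 0.787, 2.17 and 1.94 CPM with TP-3654. Its highest value was in vehicle replicate 1, the library with the most macrophage marker counts, and without that library its log2 fold change turned from -0.14 to 0.44. The 7 regulators together had a median log2 fold change of -0.09, with 1 higher and 0 lower at an unadjusted p under 0.05.

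**Figure D1:**
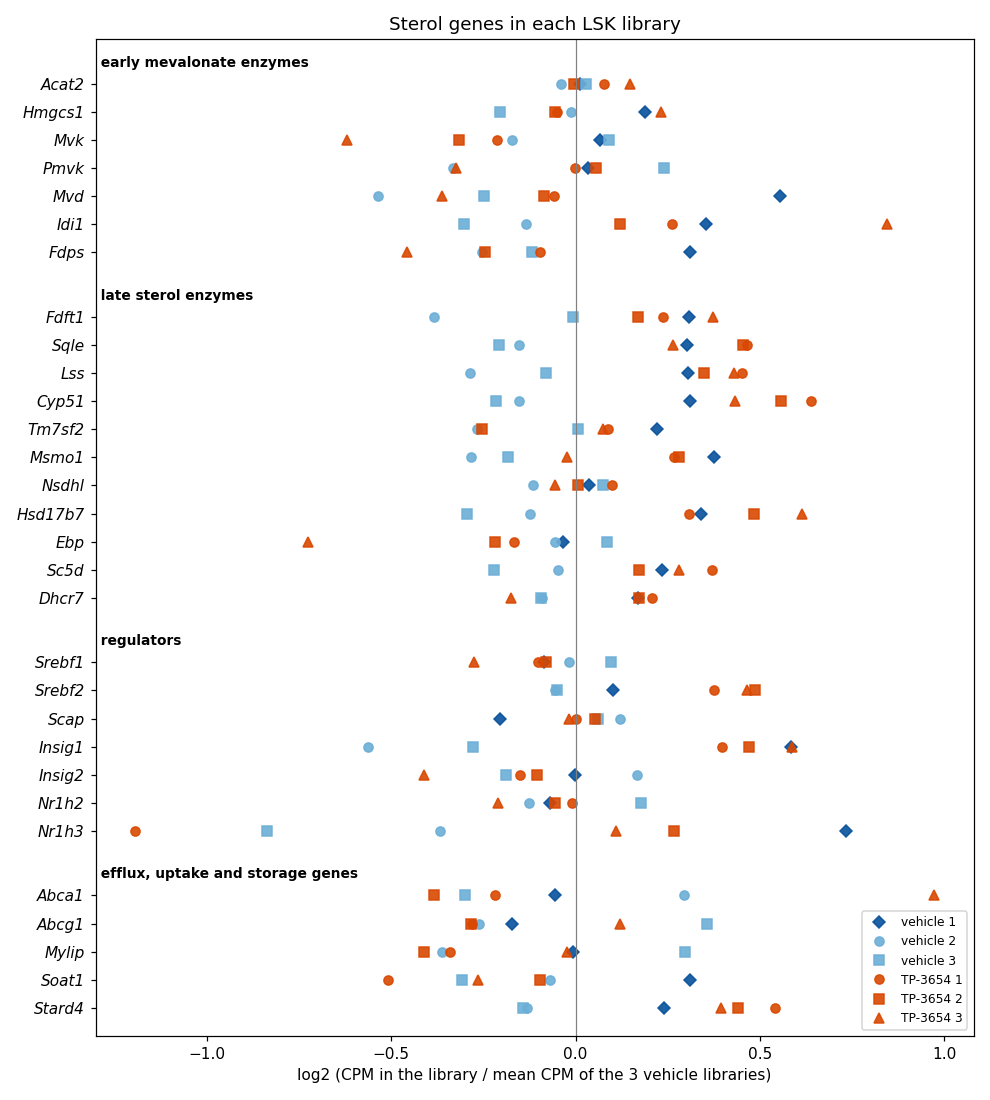
Each of the 30 genes in the 3 vehicle and 3 TP-3654 libraries, ordered by class. Points are log2 of the TMM-scaled CPM over the mean CPM of the 3 vehicle libraries. The treated points of Srebf2, Stard4, Cyp51 and Lss lie above all vehicle points, and those of Mvk and Ebp below.

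The late sterol enzymes turn farnesyl diphosphate into squalene and squalene into cholesterol. Of these 11 genes 9 had a positive log2 fold change, with a median of 0.26, and at an unadjusted p under 0.05, 3 were higher and 1 lower. The median without each library in turn ran from 0.09, without vehicle replicate 2, to 0.41, without vehicle replicate 1.

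Cyp51 (chr5:4080674-4104697), the lanosterol 14-alpha demethylase, had the highest fold change of the members. It was measured at 40.4, 29.4 and 28.1 CPM in vehicle and 50.8, 48.0 and 44.1 CPM with TP-3654. All treated libraries lay above all vehicle libraries, and vehicle replicate 1 was the nearest to them. Its log2 fold change was 0.55 (SE 0.16, edgeR unadjusted p = 0.00753, adjusted p = 0.159), and 0.45 to 0.73 with each library left out. Its annotated transcripts overlap those of Akap9 on the opposite strand by 166 bases, and Akap9 stood at 61.5 ± 7.45 CPM in vehicle and 88.1 ± 26.3 CPM with TP-3654. How the counting treated strand is not given in the sources used here, and the part of such reads was not tested.

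Sqle, the squalene epoxidase that controls entry into the sterol branch, was at 52.8, 38.5 and 37.1 CPM in vehicle and 59.1, 58.6 and 51.4 CPM with TP-3654. Only vehicle replicate 1 reached the treated range, and the log2 fold change was 0.40 (SE 0.16, edgeR adjusted p = 0.252). Lss (chr10:76531565-76557139), the cyclase that forms lanosterol, was at 27.9, 18.6 and 21.4 CPM and at 30.95, 28.8 and 30.5 CPM. Its groups did not overlap, and the log2 fold change was 0.41 (SE 0.17, edgeR adjusted p = 0.263). Fdft1, the squalene synthase at the head of the branch, was at 23.6, 14.6 and 19.0 CPM and at 22.5, 21.5 and 24.7 CPM, with overlapping groups. With each library left out the log2 fold changes ran from 0.30 to 0.58 for Sqle, 0.27 to 0.59 for Lss and 0.090 to 0.44 for Fdft1. Fdft1 shares 31.9% of the 31-base words of its transcripts with other loci, most of them with Ctsb, which overlaps it on the opposite strand. Lss overlaps an antisense transcript by 381 bases.

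The enzymes that trim and desaturate the sterol nucleus differed among themselves. Hsd17b7, the 3-ketosteroid reductase of the demethylation complex, was at 8.75, 6.35 and 5.64 CPM in vehicle and 8.56, 9.68 and 10.6 CPM with TP-3654. Vehicle replicate 1 again lay in the treated range, and the log2 fold change was 0.47 (SE 0.23, edgeR adjusted p = 0.323), or 0.35 to 0.68 with each library left out. Its partners in that complex lay closer to 0, with log2 fold changes of 0.18 for the methyl sterol oxidase Msmo1 and 0.02 for the dehydrogenase Nsdhl. The value for Msmo1 ran from 0.045 without vehicle replicate 2 to 0.41 without vehicle replicate 1. Sc5d, the lathosterol desaturase, had a log2 fold change of 0.28, or 0.18 to 0.41 with each library left out. Dhcr7, which reduces 7-dehydrocholesterol in the last step of one branch, had 0.08, and Tm7sf2, a sterol reductase, had -0.02. All 5 had overlapping groups.

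Ebp (chrX:8185329-8193512), the isomerase that moves the double bond of the sterol ring, went the other way. It was measured at 79.6, 78.5 and 86.5 CPM in vehicle and 72.7, 70.1 and 49.3 CPM with TP-3654. All treated libraries lay below all vehicle libraries, and TP-3654 replicate 3 was far below the other treated libraries. The log2 fold change was -0.35 (SE 0.15, edgeR unadjusted p = 0.0469, adjusted p = 0.285), and without TP-3654 replicate 3 it was -0.20.

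The early mevalonate enzymes run from acetyl-CoA to farnesyl diphosphate. None of the 7 reached an unadjusted p under 0.05 in either direction, 3 had a positive and 4 a negative log2 fold change, and the median was -0.08. Mvk (chr5:114444264-114460591), the mevalonate kinase, was at 16.8, 14.2 and 17.1 CPM in vehicle and 13.8, 12.9 and 10.4 CPM with TP-3654. Its treated libraries all lay below its vehicle libraries, by 0.37 on the log2 scale (SE 0.18, edgeR adjusted p = 0.317). The ratio of Cyp51 to Mvk counts, a late against an early enzyme, was 2.41, 2.06 and 1.64 in vehicle and 3.67, 3.73 and 4.23 with TP-3654. This pair was picked after its values were seen.

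Idi1, which isomerizes isopentenyl diphosphate, was at 35.2, 25.04 and 22.3 CPM in vehicle and 32.9, 29.9 and 49.4 CPM with TP-3654. The groups overlapped, and TP-3654 replicate 3 held the highest value. Its log2 fold change was 0.44 (SE 0.23, edgeR adjusted p = 0.362), and 0.18 without that library. Hmgcs1, the HMG-CoA synthase at the start of the pathway, stood at 50.8 ± 6.91 CPM and 52.5 ± 6.18 CPM. Acat2, the thiolase before it, stood at 64.6 ± 1.61 CPM and 68.0 ± 3.53 CPM, and shares 43.7% of its 31-base words with its near copy Acat3. Fdps shares 27.9%, Idi1 27.1%, Tm7sf2 13.3%, Hmgcs1 13.1% and Scap 11.3%. These are shares of words and not of reads, and how far they affect the counts was not tested. The phosphomevalonate kinase Pmvk, the decarboxylase Mvd and the farnesyl diphosphate synthase Fdps had log2 fold changes of -0.08, -0.16 and -0.26, all with overlapping groups. For Fdps the value ran from -0.38 without vehicle replicate 2 to -0.074 without vehicle replicate 1. Mvd was at 17.3 CPM in vehicle replicate 1 and at 8.11 to 11.3 CPM in the 5 other libraries.

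Among the genes that move or store sterol, the smallest p was that of Stard4, a soluble carrier that shuttles cholesterol between membranes and is a target of SREBP2. It was measured at 86.5, 66.9 and 66.3 CPM in vehicle and 107, 99.4 and 96.3 CPM with TP-3654. The groups did not overlap, and the log2 fold change was 0.46 (SE 0.13, edgeR unadjusted p = 0.00585, adjusted p = 0.148). The authors' deposited table gives it 0.64 with adjusted p = 0.0108. Leaving out each library in turn gave log2 fold changes of 0.39 to 0.60.

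The 2 export pumps and the other genes of this class varied widely between libraries. Abca1, which loads cholesterol onto apolipoprotein particles, was at 13.6, 17.3 and 11.5 CPM in vehicle and 12.1, 10.8 and 27.6 CPM with TP-3654. A single treated library was high, and without it the log2 fold change went from 0.25 to -0.31. Abcg1, a pump for cholesterol and other lipids, was at 101.2, 95.1 and 146 CPM and at 94.0, 93.7 and 124 CPM. Mylip, the ubiquitin ligase that marks lipoprotein receptors for degradation and is itself a target of the liver X receptors, was at 34.0, 26.6 and 41.9 CPM and at 27.0, 25.7 and 33.6 CPM. Soat1, which esterifies cholesterol for storage, stood at 58.2 ± 12.8 CPM and 48.0 ± 6.81 CPM. All 4 had overlapping groups, and the 5 genes of this class had a median log2 fold change of -0.14.

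**Figure D2:**
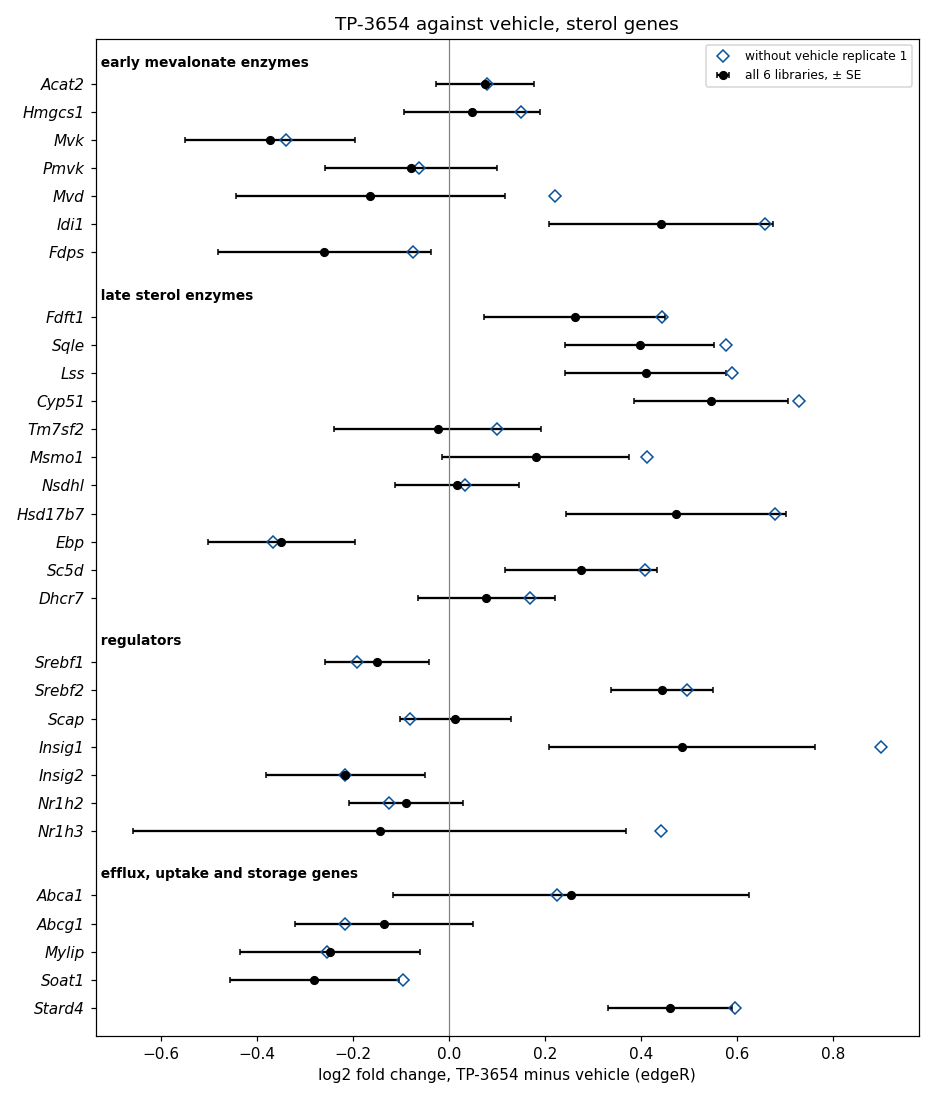
Log2 fold change of each gene, TP-3654 minus vehicle, from edgeR (black points, bars are the SE), with the value without vehicle replicate 1 as open diamonds. Among the late enzymes most diamonds lie to the right of the points, and Insig1 goes from 0.49 to 0.90. That library was the highest vehicle library at 9 of the 11 late enzymes, so such a shift follows from leaving it out.

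Vehicle replicate 1 had a large part in these values. It was the highest vehicle library at 18 of the 30 members (60%) and at 9 of the 11 late enzymes (81.8%), and at 34.5% of all tested genes. Averaged over the late enzymes, log2 CPM centred on each gene's mean was 0.14 in vehicle replicate 1, -0.26 and -0.19 in the other vehicle libraries, and 0.17, 0.10 and 0.04 with TP-3654. For the early enzymes the values were 0.25, -0.17 and -0.03 in vehicle and 0.03, -0.04 and -0.03 with TP-3654. In both enzyme classes vehicle replicate 1 therefore lay with or above the treated libraries.

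Without vehicle replicate 1, 11 members (36.7%) stood higher at an unadjusted p under 0.05, against 8.88% of the 13331 genes then tested, and 0 stood lower, against 5.02%. None passed after adjustment (0% of genes, smallest adjusted p of a member 0.178 in edgeR). The choice of this library was made after its values were seen. It was the highest vehicle library at 18 of the 30 members, and leaving out the highest raises a fold change by construction. The share of 36.7% is therefore no test of the members. The 11 were Idi1, Fdft1, Sqle, Lss, Cyp51, Msmo1, Hsd17b7, Sc5d, Srebf2, Insig1 and Stard4, which puts 7 of the 11 late enzymes and 1 of the 7 early enzymes among them. The log2 fold changes ran from 0.41 for Sc5d and Msmo1 to 0.73 for Cyp51 and 0.90 for Insig1. Leaving out vehicle replicate 2 or 3 instead gave 3 members higher. Dropping a treated library gave 3 for replicate 1 and 4 for replicate 2 or 3. Srebf2, Cyp51 and Stard4 kept an unadjusted p under 0.05 in all 6 of these edgeR fits. Vehicle replicate 1 was also the library with the highest sums of macrophage and mature myeloid markers, and of the vehicle libraries it had the most erythroid marker counts, at 1650 CPM against 1002 and 701 CPM. With TP-3654 the erythroid sums were 1719, 976 and 855 CPM. In each group the library with the highest late enzyme level thus also had the highest erythroid sum. The stem cell sums were highest in these libraries too, at 302, 242 and 294 CPM in vehicle and 522, 474 and 485 CPM with TP-3654. The sums of the other marker lists were not highest in both, but on the centred mean log2 CPM the megakaryocyte list was as well. This comparison over all marker lists was not set in advance. With 3 libraries per group, some lists can share such an order without any link to the sterol genes. The part of these markers in the sterol gene levels was not tested.

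**Figure D3:**
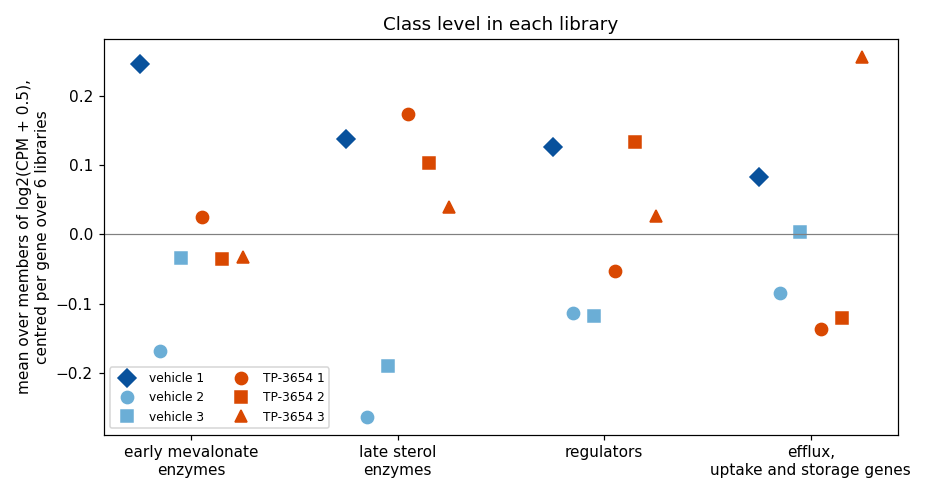
Mean log2 CPM of each class of sterol genes in each library, centred on each gene's mean over the 6 libraries. Vehicle replicate 1 lies at 0.14 for the late enzymes, next to the treated libraries at 0.04 to 0.17, and the other vehicle libraries lie at -0.26 and -0.19.

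Levels between genes were compared per kilobase of the principal transcript. On this scale the regulators Nr1h2 and Srebf2 led, at 55.4 and 51.6 CPM per kb averaged over the 6 libraries, while other regulators lay far lower. Srebf2 had 43.7 ± 2.75 CPM per kb in vehicle, below Nr1h2 at 57.1 ± 6.59, and 59.4 ± 2.42 with TP-3654, where Nr1h2 had 53.7 ± 3.84. Ebp at 41.7 and Acat2 at 29.5 CPM per kb were the highest of the enzymes, and Srebf1 at 35.4 and Scap at 33.8 CPM per kb lay within their spread of each other. Most enzymes lay between 4.69 for Sc5d and 18.0 for Sqle, where neighbours in the order mostly lay within their SDs. Hsd17b7 at 1.79, Abca1 at 1.51 and Nr1h3 at 0.878 CPM per kb were the lowest, so the level of the export pump Abca1 was far below that of Abcg1 at 18.7.

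**Figure D4:**
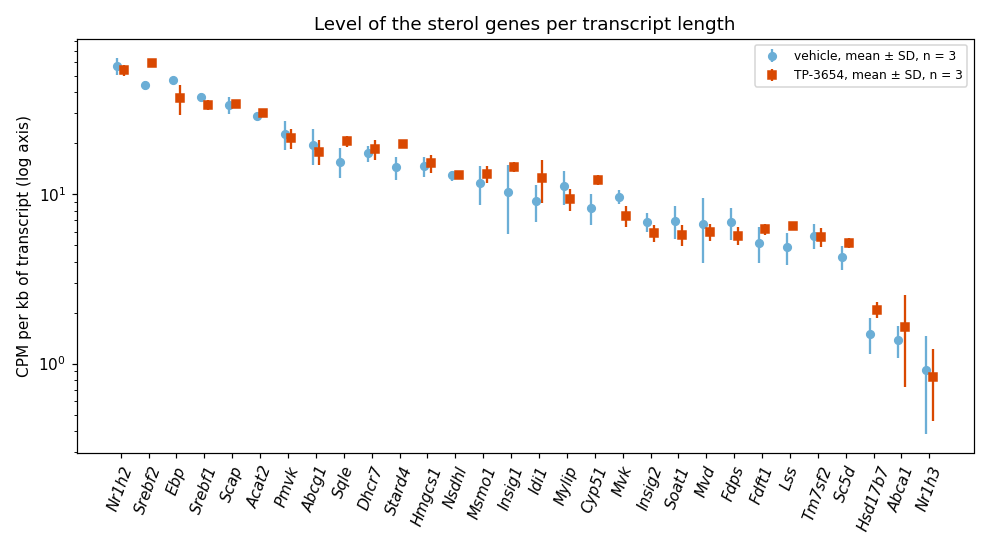
Mean CPM per kb of transcript (points, bars are the SD, n = 3) of each gene in vehicle and TP-3654 libraries, ordered by the mean over all 6, on a log axis. The genes span 55.4 for Nr1h2 to 0.878 for Nr1h3, and the groups of most genes overlap within their bars.

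Promoters of 5 of the 6 members whose groups did not overlap are shown because SREBP2 is known to act at such promoters together with NF-Y and Sp1. Each is the 150 bases before 1 start site in the RefSeq promoter table (GRCm38.p6), 5′ to 3′ on the gene's strand, in lower case, with capitals for matches on either strand to the sterol response element TCACNCCAC, the NF-Y box CCAAT or the GC box GGGCGG. The RefSeq gene spans given above for Lss and Mvk begin before that site, so their windows reach into those spans. Hmgcs1 is included as the 1 member whose window held the sterol element.
Srebf2, chr15:82147119-82147268, plus strand: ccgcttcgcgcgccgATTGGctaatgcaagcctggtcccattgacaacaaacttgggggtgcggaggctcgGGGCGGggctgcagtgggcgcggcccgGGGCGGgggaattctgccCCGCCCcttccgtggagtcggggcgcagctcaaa
Cyp51, chr5:4104698-4104847, minus strand: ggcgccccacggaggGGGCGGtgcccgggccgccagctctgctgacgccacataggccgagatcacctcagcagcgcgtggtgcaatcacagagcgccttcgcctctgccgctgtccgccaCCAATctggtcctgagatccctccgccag
Lss, chr10:76531455-76531604, plus strand: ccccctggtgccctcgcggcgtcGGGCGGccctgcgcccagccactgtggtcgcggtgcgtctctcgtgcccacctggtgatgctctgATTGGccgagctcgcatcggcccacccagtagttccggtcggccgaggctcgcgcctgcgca
Hmgcs1, chr13:119690201-119690350, plus strand: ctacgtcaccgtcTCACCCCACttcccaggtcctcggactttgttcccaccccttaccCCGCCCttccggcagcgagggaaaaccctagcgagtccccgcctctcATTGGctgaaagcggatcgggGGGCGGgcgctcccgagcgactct
Mvk, chr5:114444119-114444268, plus strand: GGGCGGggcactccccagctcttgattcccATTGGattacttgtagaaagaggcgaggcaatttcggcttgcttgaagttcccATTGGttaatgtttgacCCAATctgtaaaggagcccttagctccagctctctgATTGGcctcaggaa
Ebp, chrX:8193513-8193662, minus strand: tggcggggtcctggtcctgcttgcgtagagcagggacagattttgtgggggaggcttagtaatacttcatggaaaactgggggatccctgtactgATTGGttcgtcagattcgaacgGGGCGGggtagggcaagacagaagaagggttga
In the full windows of 250 bases before to 50 after the start, which 25 of the 30 members had (all but Fdps, Fdft1, Sqle, Abcg1 and Stard4), the NF-Y box was found in 20 (80%) and the GC box in 22 (88%). Of the 10475 tested genes with such a window, 43.1% held the NF-Y box and 67% the GC box. The sterol element, searched with these letters only, was found in 1 member (4%) and in 1.33% of the tested genes. The genes with the higher and the lower levels were not told apart by these letters, since Mvk and Ebp, which stood lower, held both boxes, as did Srebf2, Cyp51 and Lss. Mvk had 4 NF-Y boxes in its 150 bases and Srebf2 had 3 GC boxes. A match is a run of letters and not a measured binding site.

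Other genes of sterol biology were read from 6 lists with 91 tested genes, of which 12 were higher and 11 lower at an unadjusted p under 0.05. The same rule took 10.2% of all tested genes as higher and 6.84% as lower, shares that also stand beside each list below. The 91 genes had a median log2 fold change of 0.00. None passed in edgeR after adjustment. Of 17 genes of fatty acid and other lipid metabolism, listed for a link to SREBP1, 5 were higher and 2 lower, with a median of 0.30. Elovl6, a fatty acid elongase, was at 65.1, 74.7 and 60.4 CPM in vehicle and 91.7, 88.1 and 92.7 CPM with TP-3654 (edgeR adjusted p = 0.119). The groups of Elovl6 did not overlap, and those of the desaturase Fads1 and the acyl-CoA ligase Acsl3, with log2 fold changes of 0.41 and 0.34, did not either. Of 16 genes of SREBP processing and sterol-sensing degradation 0 were higher and 3 lower, with a median of -0.13, and the 3 were Erlin1, Ube2g2 and Tmem97. Of 13 genes of the isoprenoid and prenylation branch 1 was lower, Dhdds of dolichol synthesis, with a log2 fold change of -0.34. Of 9 other sterol enzymes 1 was higher and 1 lower. The lower was Cyb5a, a cytochrome b5, with a log2 fold change of -0.34 and groups that did not overlap.

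The sterol transport and oxysterol list held the largest fold changes of these lists, with 4 of 23 genes higher and 3 lower at an unadjusted p under 0.05. Vldlr, a lipoprotein receptor, was at 51.2, 42.1 and 55.2 CPM in vehicle and 90.5, 165 and 106 CPM with TP-3654. Its log2 fold change was 1.28 (SE 0.23), with adjusted p = 0.0792 in edgeR and 1.04e-05 in DESeq2. Npc2, the lysosomal carrier that hands cholesterol out of the lysosome, was at 328, 298 and 333 CPM in vehicle and 218, 249.5 and 184 CPM with TP-3654. Its log2 fold change was -0.56 (SE 0.13), with adjusted p = 0.105 in edgeR and 0.00594 in DESeq2. Cyp7b1, the oxysterol hydroxylase, had 7, 9 and 24 counts in vehicle and 63, 55 and 53 counts with TP-3654, with adjusted p = 0.106 in edgeR and 0.00844 in DESeq2. The authors' deposited table gives adjusted p = 0.114 for Vldlr, 7.24e-05 for Npc2 and 0.00225 for Cyp7b1. Of 13 partners and targets of the liver X receptors 2 were higher and 1 lower. The coactivator Ncoa1 had a log2 fold change of 0.37 and Smpdl3a one of -0.38.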

How the data were processed

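RNA was measured in 6 libraries. Per the file headers, 1 deposited table holds raw counts for each Entrez gene and library. The authors also gave a table of their own comparison, whose deposited log2 fold changes and p-values, raw and adjusted, carry those names in its header. The submitters' processing notes name HISAT2 2.1.0, SAMtools 1.9.0 and DESeq2, with the builds mm10 and GRCm38. The read counter, gene annotation and strandedness were not given in the sources used here. The fold changes of the authors' deposited table differed from those DESeq2 1.42.0 gave on the deposited counts by a median of 0.0763 on the log2 scale over 12808 genes, and by 0.0657 over the members, of which 27 of 30 had the same sign.

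TP-3654 was compared with vehicle over all genes in R 4.3.3 with edgeR 4.0.16 (TMM, filterByExpr, robust quasi-likelihood F test, Benjamini-Hochberg adjustment, called under 0.05). The SE was obtained by dividing the size of the log2 fold change by the root of F. Library totals were 20582057 to 25315596 counts. Alternatives were DESeq2, limma-voom (limma 3.58.1) with and without sample weights, other scalings and filters, a replicate block and leaving out each library. Sequence shared with other loci was counted in 31-base words of GENCODE transcripts. The edgeR step was tested on simulated data. The members, classes and lists were chosen with earlier results of these data known. All 30 members are named, with up to 3 genes of smallest p per pathway list and the sort markers. Faxdc2, Rxrg and Ch25h of the pathway lists were not analysed here, and some genes that the rule would name are not reported here.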

Additional observations from a re-analysis of the deposited data

How the results depend on the processing

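Srebf2, Cyp51, Stard4, Sqle and Lss kept a positive log2 fold change under every alternative run. The number of genes past an adjusted p of 0.05 was 0 in edgeR, 657 in DESeq2, 147 in limma-voom with sample weights, 5 without the low-count filter, 3 with the replicate block and 0 to 31 with each library left out. Of the members DESeq2 called 1. Members higher at an unadjusted p under 0.05 numbered 3 to 11 with each library left out. Members lower numbered 2 in DESeq2, 0 with sample weights, upper quartile scaling, library totals, no robust option or the replicate block, and 0 to 1 with each library left out. Deviations of same-numbered libraries from their group means had r = 0.015, -0.036 and 0.024 across genes. With 3 libraries per group such values cannot show whether the numbers pair the libraries.

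With each library left out, class medians ran from -0.24 to 0.080 for early enzymes, 0.090 to 0.41 for late enzymes, -0.14 to 0.019 for regulators (-0.0058 with sample weights) and -0.30 to 0.082 for efflux, uptake and storage genes. Members sharing at most 5% of their 31-base words, an alternative added after seeing the data, gave -0.16, 0.28, -0.12 and -0.14. With each library left out, log2 fold changes ran from -0.063 to 0.15 for Hmgcs1, -0.24 to 0.056 for Pmvk, -0.38 to 0.22 for Mvd, -0.15 to 0.10 for Tm7sf2, -0.052 to 0.055 for Nsdhl, -0.080 to 0.063 for Scap, -0.16 to 0.0077 for Nr1h2, -0.43 to 0.44 for Nr1h3, -0.31 to 0.49 for Abca1 and -0.29 to 0.082 for Abcg1. Sample weights gave -0.042 for Hmgcs1, 0.088 for Pmvk, 0.018 for Mvd and -0.26 for Abca1, and DESeq2 gave -0.0013 for Scap. In each case the cause was not tested. Depth was lowest for Nr1h3, with 17 to 76 counts per library.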
